A study of Mus musculus with 2 samples.

Results

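The core circadian clock genes of the mouse heart are described here: the activators Arntl and Clock, the repressors Per1, Per2, Per3, Cry1 and Cry2, the nuclear receptor repressors Nr1d1 and Nr1d2, and the output gene Dbp. They were chosen by symbol, and all 10 were found among the 55536 annotated genes of the tables. Heart of male B6CASTF1/J mice, a hybrid of a laboratory strain and a wild-derived strain, was taken at 14 days of age for total RNA sequencing. The only group held 2 libraries, numbered as biological replicates 1 and 2, with 39334380 and 46391250 expected counts, which are estimates of reads per gene that need not be whole. Both libraries carry the same donor label, and the labels name 3 males without saying whether their RNA was pooled. The hour of the day at which the hearts were taken is not given in the sources used here, so no phase of the clock was assigned.

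The clock is a feedback loop of transcription that runs in nearly every mouse tissue. The proteins of Arntl (BMAL1) and Clock bind together to E-boxes, DNA elements with the core CACGTG, and switch on the Per, Cry, Nr1d and Dbp genes. PER and CRY proteins then return to the nucleus and block that activator, and the NR1D proteins (REV-ERBs) repress Arntl through elements that the ROR receptors also bind. DBP acts on D-box elements, which several clock genes carry, and Arntl and the Nr1d genes usually peak at opposite times of day.

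The elements through which these proteins act were looked for in RefSeq promoter sequences (GRCm38.p6, the assembly also called mm10), each running from 250 bases before to 50 after a transcription start. The table held 13 promoters for 9 of the 10 genes, and Per2 had no entry. The 4 stretches below are shown because each carries an element of the loop in a gene whose level is given further on. All lie before the start site, are written 5′ to 3′ on the gene's strand, and have only the element named for that gene in capitals; the other matches counted further on stay in lower case. Per3 (chr4:151044786-151044900, minus strand) carried the D-box TTATGTAA in 2 copies. Per1 (chr11:69098753-69098818, plus strand) and Cry1 (chr10:85185079-85185144, minus strand) each carried 1 E-box, and Nr1d2 (chr14:18239148-18239213, minus strand) carried AGGTCA, the core of the element bound by ROR and NR1D proteins.
Per3: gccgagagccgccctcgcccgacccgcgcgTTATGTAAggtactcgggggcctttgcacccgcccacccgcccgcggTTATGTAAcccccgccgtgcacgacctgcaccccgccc
Per1: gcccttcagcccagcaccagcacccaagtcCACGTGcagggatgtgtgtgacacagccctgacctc
Cry1: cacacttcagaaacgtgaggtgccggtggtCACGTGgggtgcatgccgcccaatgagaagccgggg
Nr1d2: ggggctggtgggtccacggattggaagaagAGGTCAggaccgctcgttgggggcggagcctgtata

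The matches were counted on both strands beside all 32851 promoters of the table. The shares of all promoters are per promoter, while a gene can have more than 1. Of the 13 promoters of the 9 genes, 2 held the E-box CACGTG, 3 the variant CACGTT, 1 the D-box and 4 AGGTCA. The E-box CACGTG was in the promoters of 2 of the 9 genes, Per1 (166 bases before the start) and Cry1 (60 bases before it), and in 7.15% of all promoters. The variant CACGTT was in Cry1, Cry2 and Nr1d1, and in 4.68% of all promoters. The D-box, spelled TTATGTAA or TTACGTAA, was in Per3 alone of the 9, at 205 and 158 bases before the start, and in 1.06% of all promoters. The ROR core AGGTCA was in 4 of the 9 genes: Nr1d2 (77 bases before the start), Per1 (137 before), 1 of the 3 starts of Clock (119 before) and the second start of Arntl (31 bases after it). It is a short word, held by 16.3% of all promoters. The short form of the cyclic AMP response element, TGACGT, was in the second promoter of Per1 and in 7.51% of all promoters, and the full element TGACGTCA was in none of the 13 and in 1.79% of all. No promoter of the 9 genes held a direct repeat of AGGTCA with 0 to 4 bases between the copies (0.0761% of all promoters). None held the glucocorticoid response element, written as AGAACA and TGTTCT around 3 bases (0.00913% of all). The Dbp window held no match to any of these motifs, which says only that these letters are not in that window.

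All 10 clock genes reached 1 TPM, a level scaled for transcript length and library size, in both libraries. In comparison, 22.5% of all annotated genes and 51.8% of protein-coding genes did so. Mean levels ran from 3.68 TPM for Arntl to 38.5 TPM for Per1, a 10.5-fold range. In the order of mean levels, Per1 was followed by Nr1d2, Clock, Nr1d1, Dbp, Cry2, Cry1, Per3, Per2 and Arntl. Transcript values from a separate quantification with the column names of kallisto, summed per gene, put all 10 genes in the same order. Neighbours whose library values overlapped were Nr1d1 and Dbp, Dbp and Cry2, Cry1 and Per3, and Per3 and Per2. The other 5 of the 9 neighbouring pairs did not overlap, and 5 of the 10 genes held the same rank in each library.

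**Figure D1:**
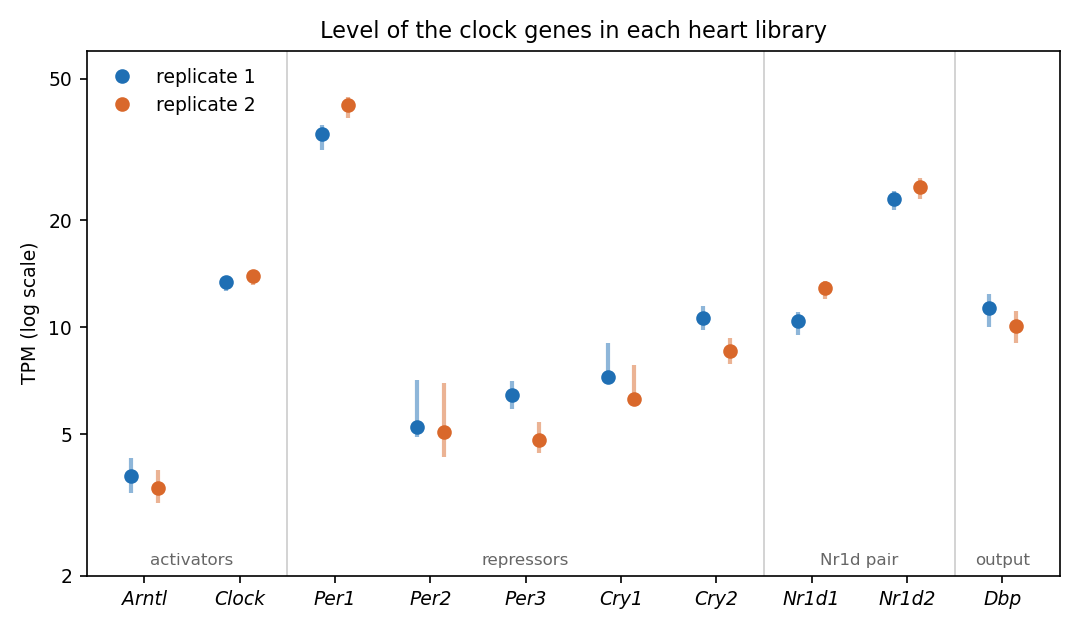
Level of each clock gene in TPM on a log axis, in replicate 1 (blue) and replicate 2 (orange), grouped by role; the vertical bars are the credible intervals of TPM that the authors deposited. Per1 stood highest and Arntl lowest in both libraries, and the bars of the libraries do not overlap for Per1, Per3, Cry2 and Nr1d1.

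The activators stood at different levels. Arntl (ENSMUSG00000055116.8; chromosome 7, 113207465 to 113314126, mm10), which encodes BMAL1, had 3.82 TPM in replicate 1 against 3.53 in replicate 2, from 323 and 369 counts. It was the lowest of the 10 genes in each library. Clock (ENSMUSG00000029238.11; chromosome 5, 76209868 to 76304792), its partner, was at 13.4 and 13.9 TPM, from 2968 and 3670 counts, and stood next below Nr1d2 in each. Clock was 3.65-fold above Arntl on average, with log2 ratios of Arntl over Clock of -1.79 and -1.95. Npas2, a close relative that can stand in for CLOCK, was at 2.76 and 3.22 TPM, and Clock exceeded it by log2 ratios of 2.24 and 2.08.

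Among the repressors the 3 Per genes differed widely. Per1 (ENSMUSG00000020893.17; chromosome 11, 69095217 to 69109960), which also responds quickly to hormones and cyclic AMP, had 34.9 TPM in replicate 1 against 42.1 in replicate 2 (38.5 ± 5.12, SD, n = 2). Per2 (ENSMUSG00000055866.9; chromosome 1, 91415982 to 91459324), the partner of Per1 in the repressor complex, was at 5.24 and 5.06 TPM. Per3 (ENSMUSG00000028957.12; chromosome 4, 151003652 to 151044665), the third member of the family, was at 6.44 and 4.83 TPM. Per1 was thus 7.32-fold above Per2 and 6.77-fold above Per3 on average, and higher than both in each library. The log2 ratio of Per1 over Per3, 2.76 on average, was 2.16 without transcripts under 1000 bases, an alternative chosen after the data were seen, and 2.23 by kallisto-style TPM. The order of the lower pair was not settled. By the main tables, the log2 ratio of Per2 over Per3 was -0.29 in replicate 1 and 0.07 in replicate 2. By kallisto-style TPM it was -0.31 and -0.12. Its mean, -0.11, was -0.20 without transcripts under 1000 bases and 0.33 over protein-coding transcripts, so no order between them is stated.

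The Per1 level rested in part on a short transcript. Per1-204, a coding model of 496 bases (chromosome 11, 69100152 to 69101048), was given 11.2 and 15.1 TPM, or 32.1% and 35.8% of the gene, by the main tables, and 0 and 1.69 TPM by the kallisto-style tables. Without transcripts under 1000 bases, Per1 stood at 23.7 and 27.1 TPM. It was still the highest of the 10 in each library, ahead of Nr1d2 at 21.5 and 21.5 TPM.

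Cry1 and Cry2 encode the cryptochromes, which hold the activator in check. Cry1 (ENSMUSG00000020038.10; chromosome 10, 85131700 to 85185064) was at 7.26 and 6.28 TPM. Cry2 (ENSMUSG00000068742.11; chromosome 2, 92403646 to 92434043) was at 10.6 and 8.58 TPM. Cry2 was the higher in both libraries, with log2 ratios of Cry1 over Cry2 of -0.54 and -0.44. Both genes read higher in replicate 1.

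Nr1d1 and Nr1d2, which encode REV-ERB alpha and beta, were both well detected. Nr1d1 (ENSMUSG00000020889.11; chromosome 11, 98767932 to 98775333) had 10.4 TPM in replicate 1 against 12.9 in replicate 2. Nr1d2 (ENSMUSG00000021775.11; chromosome 14, 18204054 to 18239127) was at 22.9 and 24.8 TPM, the second highest of the clock genes. Nr1d2 was 2.05-fold above Nr1d1 on average, with log2 ratios of Nr1d1 over Nr1d2 of -1.13 and -0.94. The mean log2 ratio, -1.03, was -0.65 over protein-coding transcripts and -0.91 by kallisto-style TPM. Rora, which encodes a receptor that activates where NR1D proteins repress, was at 11.5 and 9.55 TPM, and its relative Rorb at 0.09 TPM in each library.

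Dbp (ENSMUSG00000059824.12; chromosome 7, 45705088 to 45710203), the output gene, had 11.3 TPM in replicate 1 against 10.1 in replicate 2. Its relative Tef, another activator at D-boxes, was at 41.8 and 28.4 TPM, so that Dbp lay below Tef by log2 ratios of -1.87 and -1.48. Hlf, the third of these activators, was at 9.65 and 9.20 TPM, and Nfil3, which represses at the same elements, at 9.63 and 9.30 TPM. Dbp thus stood at most 0.23 log2 units above Hlf and above Nfil3. The sign of Dbp over Hlf and over Nfil3 turned in some alternatives given at the end, so no order among them is stated.

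The ratio of an activator to the genes of the other arm was taken within each library, since it does not depend on depth. Arntl lay below Nr1d1 by log2 ratios of -1.42 and -1.84, below Dbp by -1.54 and -1.49 and below Per2 by -0.45 and -0.51. Both libraries therefore put Arntl on the same side of all 3 genes. Clock lay above Dbp by log2 ratios of 0.24 and 0.46, and Cry1 above Per2 by 0.46 and 0.31. Over all 17 pairs compared, 16 had the same sign in both libraries by the main tables, Per2 over Per3 being the exception. The pairs were chosen with earlier results of these data known, and no share was taken over pairs of other genes. The count is therefore a description only. The libraries differed by 0.02 to 0.94 log2 units, with a median of 0.16. The largest difference was for Bhlhe40 over Bhlhe41, repressors that compete at E-boxes, with log2 ratios of 1.40 and 2.34. In 8 pairs the genes lay at least 1 log2 unit apart in both libraries. With 2 libraries of 1 group an exact permutation test cannot pass 0.05, so the ratios have no p.

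**Figure D2:**
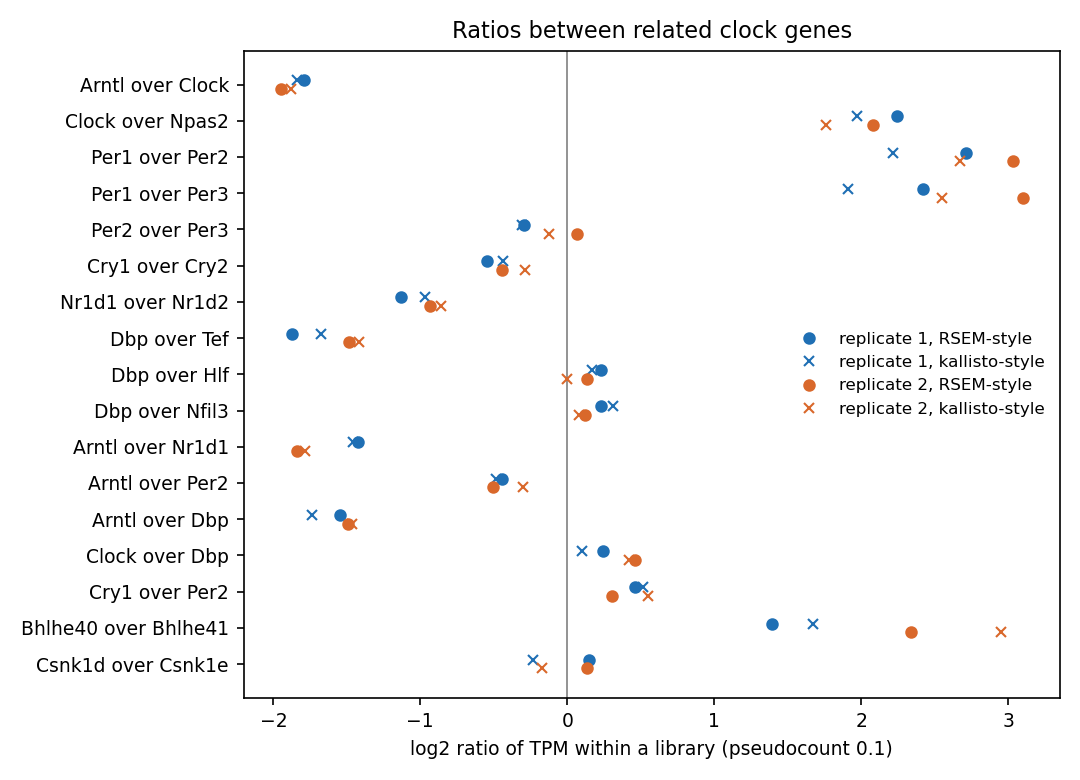
Log2 ratio of TPM between the named genes within replicate 1 (blue) and replicate 2 (orange), from the main tables (dots, RSEM-style) and the kallisto-style tables (crosses); the vertical line marks equal levels. Arntl lies left of the line against Clock, Nr1d1, Per2 and Dbp in both libraries, and in the dots Per2 over Per3 is the pair that falls on both sides.

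Before the libraries were set against each other, the label and the other cell types were checked. All 9 cardiomyocyte markers were detected, with summed levels of 36138 and 33871 TPM, while the 3 lung markers summed to 0.23 and 0.19 TPM and the 3 liver markers to 0.30 and 0.54 TPM. The libraries differed in other markers. Atrial markers summed to 1664 TPM in replicate 1 and 526 in replicate 2, lower in replicate 2 for 8 of 8. T cell markers summed to 1.70 and 38.2 TPM and thymus markers to 0.70 and 47.7 TPM; all 7 T cell markers and the 6 thymus markers tested were higher in replicate 2, and Rag2 and Ptcra had 0 counts in replicate 1. At any ratio by the exact binomial test, 11.6% of all genes tested were lower in replicate 2 and 10.4% higher. Among genes with at least as many counts as the lowest clock gene, the shares were 18.6% and 11.1%. Fibroblast markers summed to 960 and 821 TPM, with 4 of 5 lower in replicate 2 by this test and a median log2 ratio of -0.25. Smooth muscle and pericyte markers were lower for 4 of 4 (206 and 193 TPM, median -0.28) and endothelial markers for 4 of 5 (748 and 640 TPM, median -0.15). Of the 10 clock genes, given next, 5 were lower in replicate 2 by this test, with ratios from -0.48 to -0.23. Another 2 were higher, at 0.18 and 0.27, and the rest did not pass. Macrophage markers were higher for 3 of 5 (44.2 and 54.8 TPM, median 0.34). Of 5 adipocyte markers 3 were lower and 1 higher (19.0 and 11.1 TPM, median -0.68). Brown adipocyte markers summed to 801 and 795 TPM, with 2 of the 3 tested lower (median -0.21). Most of each sum was Cox7a1, at 765 and 772 TPM, while Ucp1 was at 9.76 and 0.32 TPM. Both genes were named after their values were seen. Ventricular markers (8016 and 8024 TPM) were lower for 2 of 5 and higher for 1, with a median log2 ratio of -0.05. Erythroid markers (18880 and 18197 TPM) were lower for 3 of 4 and higher for 1 (median -0.08). Cardiomyocyte markers were lower for 7 of 9 and higher for 1 (median -0.09). The part of these differences in the results on the clock genes was not tested. In bulk RNA, fewer cells of a type and less RNA per cell cannot be told apart.

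Every clock gene stayed within 2-fold between the libraries. Counts were compared with a 2-sided exact binomial test, adjusted by Benjamini-Hochberg over the 16611 genes tested. It compares these libraries over counting error, not conditions. None of the 10 was called at an absolute log2 ratio of at least 1, beside 3.24% of all genes tested (2.47% higher and 0.771% lower in replicate 2). At any ratio, 7 of the 10 passed, beside 22.1% of all genes tested. The share was 29.6% among the 8396 genes with at least as many counts in each library as the lowest of the 10 (11.1% higher and 18.6% lower in replicate 2). The same 7 genes had an unadjusted p under 0.05, as did 31.3% of all genes tested. When a coefficient of variation of 0.1 between libraries was assumed instead, 0 of the 10 passed by edgeR's exact test, beside 2.85% of all genes. With 0.2 assumed, again 0 of the 10 passed, beside 1.38%.

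Of the 7 genes, 5 were lower in replicate 2 (11.6% of all genes tested) and 2 were higher (10.4%). Per3 differed most, with 998 counts in replicate 1 and 871 in the deeper replicate 2. Scaled for depth, this was a log2 ratio of replicate 2 over replicate 1 of -0.48 (95% exact interval -0.61 to -0.35; adjusted p = 1.72e-11, exact binomial test). Cry2 followed at -0.36 (-0.48 to -0.24; adjusted p = 1.04e-07, exact binomial test), from 1147 and 1092 counts. Per2 (-0.25), Dbp (-0.24) and Cry1 (-0.23) were lower by less, from 919 and 944, 478 and 494, and 650 and 674 counts. Their exact binomial adjusted p-values were 0.00191, 0.0493 and 0.0192.

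The higher ones were Nr1d1, at a log2 ratio of 0.27 (95% exact interval 0.14 to 0.40; adjusted p = 0.000304, exact binomial test) from 810 and 1193 counts, and Per1, at 0.18 (0.12 to 0.25; adjusted p = 4.81e-07, exact binomial test) from 3305 and 4570 counts. The remaining 3 genes did not pass: Arntl at -0.09 (-0.31 to 0.13), Clock at 0.02 and Nr1d2 at 0.01. The repressors did not move as one block, since Per1 was higher in replicate 2 while Per2, Per3, Cry1 and Cry2 were lower. For Per2 the TPM values, 5.24 and 5.06, lie closer together than the scaled counts, because the main tables gave 0.58 TPM in replicate 2 and none in replicate 1 to a transcript of 231 bases.

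The median absolute log2 ratio was 0.24 over the 10 genes, 0.14 over all genes tested and 0.086 over the 8396 genes of like or greater depth. The credible intervals of TPM in the authors' deposited tables did not overlap between the libraries for Per1, Per3, Cry2 and Nr1d1. That is 4 of the 10 genes, beside 11.3% of the 12487 genes at 1 TPM or more. The 12487 include genes with fewer counts than the lowest of the 10, and no share at like depth was taken for the intervals. Dbp lost its call when counts were scaled by spike-ins (exact binomial adjusted p = 0.0617), by total counts (0.136), without the filter on low counts (0.0849) and over coding transcripts alone (0.156). Cry1 lost it with total counts (0.0783).

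**Figure D3:**
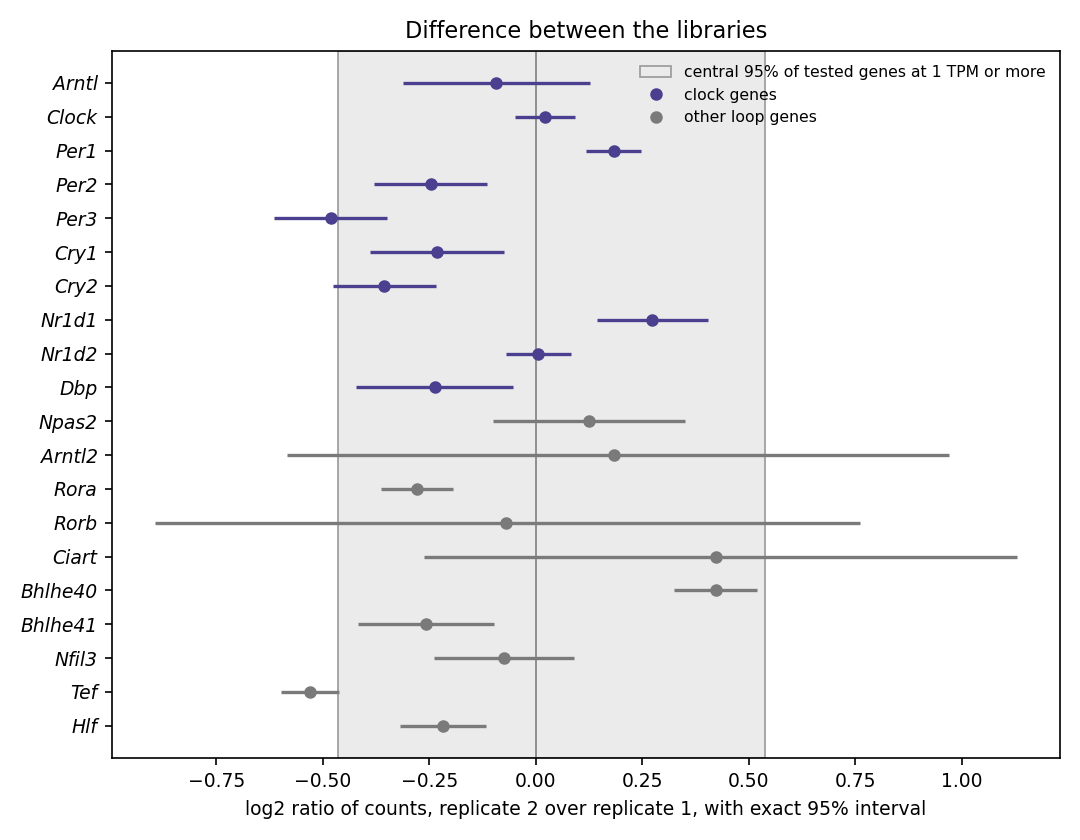
Log2 ratio of counts, replicate 2 over replicate 1, with exact 95% intervals, for the 10 clock genes (violet) and 10 other genes of the loop (grey); the shaded band holds the central 95% of tested genes at 1 TPM or more. Among the clock genes the dots run from -0.48 for Per3 to 0.27 for Nr1d1, and only that of Per3 lies outside the band, just past its lower edge of -0.47.

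Each of the 10 genes had the same leading transcript in both libraries and by both quantifications, out of 44 annotated transcripts in all, and all 10 leading transcripts were protein-coding. The leading share ran from 45.9% and 44.0% for Clock-201 to 100% in each library for Cry1-201. Transcripts annotated with a retained intron took 28.0% and 25.7% of the Nr1d2 level, 24.4% and 29.0% of Per3, and 25.3% and 22.5% of Dbp. They took 10.6% and 12.7% of Clock and 8.42% and 8.19% of Arntl. Per1, Per2, Cry2 and Nr1d1 have no transcript annotated with a retained intron, so no share could be measured for them. Cry1 has such transcripts, which took 0% in each library by the main tables and 2.18% and 6.19% by the kallisto-style tables.

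The kallisto-style shares of retained-intron transcripts were 18.7% and 18.5% for Nr1d2, 12.9% and 22.9% for Per3, and 36.1% and 32.2% for Dbp. The share was thus larger than in the main tables for Dbp and smaller for the other two. Total RNA holds unspliced RNA as well, and such reads can be assigned to these transcripts. How much was unspliced was not tested.

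**Figure D4:**
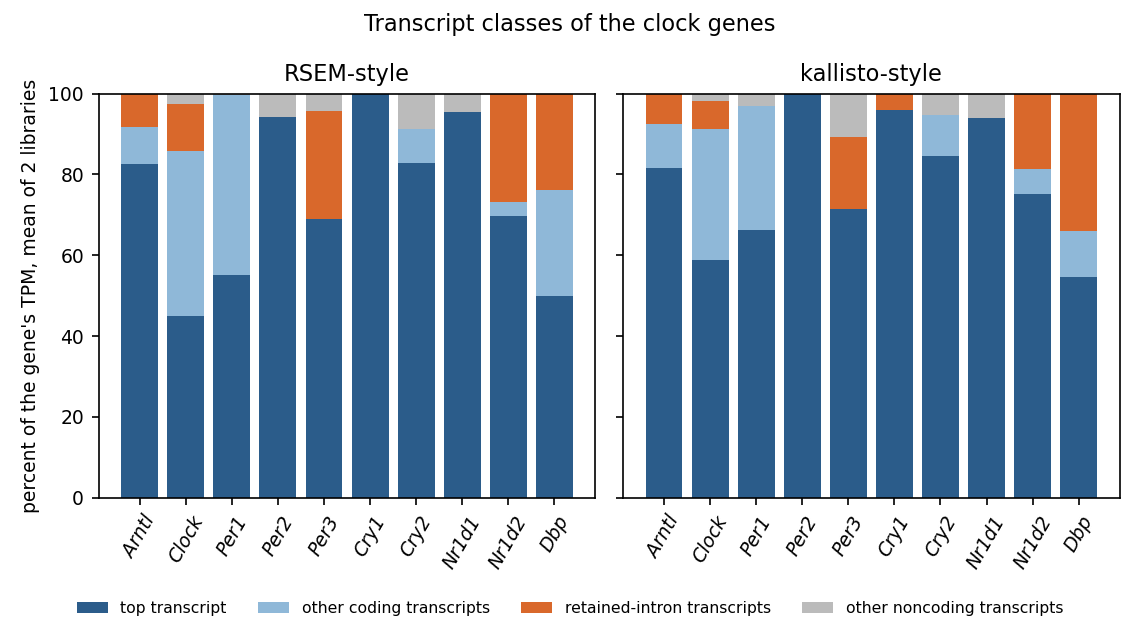
Share of each clock gene's TPM, as the mean of the 2 libraries, in its leading transcript, other coding transcripts, transcripts with a retained intron and other noncoding transcripts, by the RSEM-style tables (left) and the kallisto-style tables (right). The orange shares of Per3, Nr1d2 and Dbp are the largest in both panels.

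Per1 transcripts began in 3 regions. The first, that of Per1-201 and of the promoter with the E-box shown above, had 19.6 and 22.9 TPM by the main tables and 21.3 and 18.7 by the kallisto-style tables. The region of the second promoter, which held TGACGT, had 11.2 and 15.3 TPM by the main tables and 2.48 and 10.8 by the kallisto-style tables. A region farther upstream had 4.12 and 3.95 TPM. The first region was the highest in each library by both quantifications. The higher Per1 level of replicate 2 was in the first and second regions by the main tables, but in the second and upstream regions by the kallisto-style tables, so its place was not settled.

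Some clock genes share sequence with other genes. Per3 lies wholly inside Camta1, a transcription factor gene on the same strand. Camta1 had 2878 and 3707 counts over the whole gene and a log2 ratio between the libraries of 0.08 (exact binomial adjusted p = 0.0964). The part of shared reads in the Per3 ratio was not tested. Clock holds the pseudogene Ube2n-ps1 on its own strand, with 415 and 565 counts. Nr1d1 overlaps Thra by 1075 bases and Dbp overlaps Sphk2 by 737 bases, on opposite strands. Whether counting used the strand is not given in the sources used here, so the division of reads within these overlaps is uncertain.

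Other genes of the loop were described from a list of 10, of which 7 were detected. At any ratio, 1 was higher in replicate 2 and 4 were lower, beside 10.4% and 11.6% of all genes tested, and 0 of the 10 were called at 2-fold, beside 3.24%. Tef, at a log2 ratio of -0.53, was the lowest, followed by Rora (-0.28), Bhlhe41 (-0.26) and Hlf (-0.22). Bhlhe40, which encodes the repressor DEC1, was the one that was higher (0.42), with 16.2 and 25.6 TPM. Arntl2, a relative of Arntl, was at 0.43 and 1.01 TPM, and Ciart, a repressor of the activator pair, at 0.96 and 1.15 TPM; these 2 were named after their values were seen, because each reached 1 TPM in 1 library only. Promoters of Bhlhe41, Ciart and Tef also held CACGTG, and that of Ciart held 3 copies, at 116, 58 and 44 bases before the start.

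Kinases and ubiquitin ligases set the pace of the loop by marking PER and CRY for decay. Of 14 genes for kinases, ligases and stability factors, 13 were detected as RNA, led by the casein kinase gene Csnk1a1 (108 and 102 TPM) and the ligase subunit gene Skp1a (90.6 and 92.4 TPM). Fbxl21, a ligase subunit for CRY, was at 0.20 and 0.10 TPM. Csnk1d and Csnk1e, kinases of PER, had log2 ratios of 0.15 and 0.13. The mean ratio was 0.72 without transcripts under 1000 bases, 1.04 with counts not divided by length and -0.20 by kallisto-style TPM, so no order between them is stated. At any ratio, 1 of the 13 tested was higher in replicate 2 and 4 were lower, beside 10.4% and 11.6% of all genes tested. All 12 chromatin and repressor cofactors were detected, led by Chd4 (59.6 and 57.7 TPM) and Ncor1 (53.2 and 55.9 TPM), the corepressor that NR1D proteins recruit. At any ratio 3 of the 12 were higher and 3 lower, beside the same 10.4% and 11.6%.

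Of 15 genes known to follow the clock in heart or many tissues, 14 were detected. The highest were Pdk4, which restrains glucose oxidation, at 373 and 425 TPM, and the deubiquitinase gene Usp2, at 69.4 and 64.2 TPM. At any ratio, 2 of the 15 were higher in replicate 2 and 8 were lower, beside 10.4% and 11.6% of all genes tested (11.1% and 18.6% of the 8396 deeper ones). The list shares Tef, Hlf, Ciart and Bhlhe41 with the other loop genes, and Usp2 with the kinase, ligase and stability genes. Tef, Hlf and Bhlhe41, lower above, are thus counted again here. None was called at 2-fold, beside 3.24% of all genes tested. The median log2 ratio was -0.10, against -0.16 for the 10 clock genes and 0.00 over all genes tested.

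Clock genes also respond to glucocorticoids, to signals that induce immediate early genes, and to temperature, so these lists were set beside them. The glucocorticoid list shares Klf9 with the list of genes known to follow the clock, and Dusp1 with the immediate early list. At any ratio, 10.4% of all genes tested were higher in replicate 2 and 11.6% lower, and at 2-fold 2.47% and 0.771%. Of 13 glucocorticoid-responsive genes, 4 were higher and 7 lower at any ratio and none was called at 2-fold. The highest, Mt1 (194 and 159 TPM) and Tsc22d3 (109 and 108 TPM), had log2 ratios of -0.30 and -0.04. Of 16 immediate early genes, 6 were higher and 1 lower at any ratio, and 3 were higher at 2-fold or more. The largest was Nr4a1, an orphan receptor gene, with 5.67 TPM in replicate 1 against 25.9 in replicate 2, a log2 ratio of 2.19. Fosb (0.16 and 0.48 TPM) and Atf3 (1.66 and 3.90 TPM) had log2 ratios of 1.49 and 1.22.

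Of 8 temperature-responsive genes, 5 were higher in replicate 2 and 2 were lower at any ratio, beside 10.4% and 11.6% of all genes tested. The chaperone gene Hspa8 was at 418 and 557 TPM, a log2 ratio of 0.32, and Rbm3, which encodes a cold-induced RNA-binding protein, at 95.9 and 74.2 TPM, a ratio of -0.38. Cirbp, a second cold-induced gene, named after its values were seen, was at 28.6 and 16.6 TPM, a ratio of -0.86. The part of these differences in those of the clock genes was not tested.

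**Figure D5:**
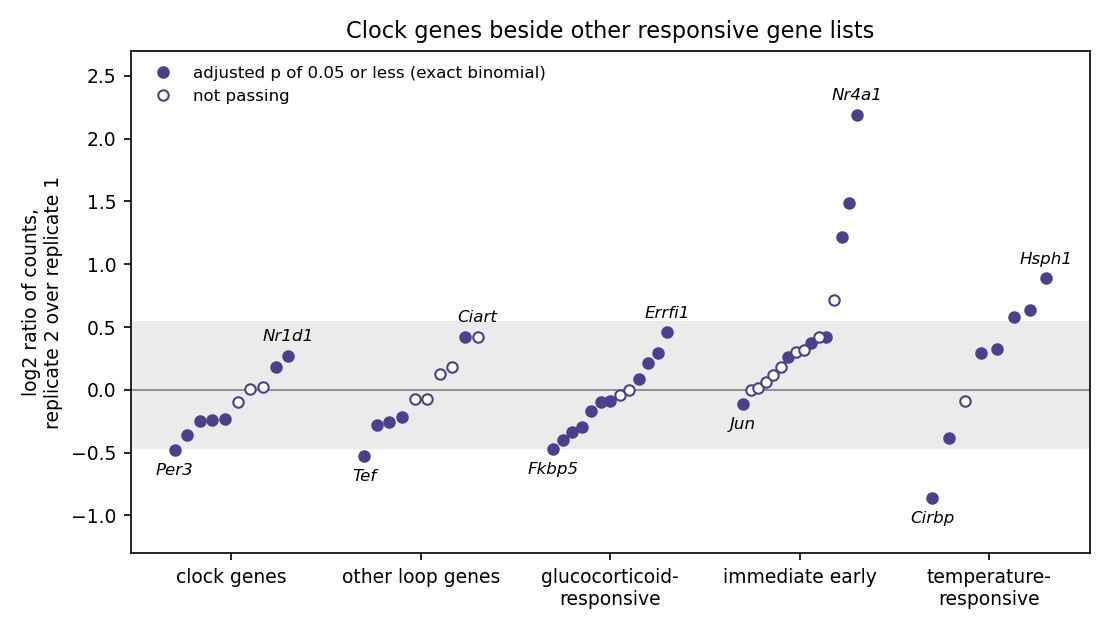
Log2 ratio of counts, replicate 2 over replicate 1, for each tested gene of 5 lists, sorted within a list; filled dots passed the exact binomial test at an adjusted p of 0.05, open dots did not, and the shaded band holds the central 95% of tested genes at 1 TPM or more. The clock genes run from -0.48 to 0.27, while the immediate early genes reach 2.19 (Nr4a1) and the temperature-responsive genes run from -0.86 (Cirbp) to 0.89 (Hsph1).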

How the data were processed

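Total RNA of 2 heart libraries was sequenced after ribosomal depletion with spike-ins, from 300 ng each per the labels. Per the file headers, the authors deposited gene and transcript tables with the columns of RSEM (expected counts, TPM, posterior mean TPM, percent of a gene's TPM in each transcript, and bounds of a credible interval, treated as a score) and transcript tables with the columns of kallisto (estimated counts, TPM). The authors' readme names mm10 and annotation M21; for tool versions and the level of the credible interval, the sources used here give nothing. Levels are deposited TPM with SD over the 2 libraries. Depth was 39334380 and 46391250 expected counts, of which spike-ins took 0.517% and 0.531%; 26249 identifiers that name no annotated gene held 0.87 and 2.84 counts and were left out. The number of unused sample columns was 0.

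Expected counts were rounded and compared by a 2-sided exact binomial test with TMM-scaled library sizes (edgeR 4.0.16, R 4.3.3), for genes reaching 10 counts in both libraries or 20 when these are summed, with Benjamini-Hochberg adjustment over all genes tested, a threshold of 0.05 and, for the call, an absolute log2 ratio of at least 1. The call at 2-fold was tried on simulated counts with counting error only, which does not bear on the calls at any ratio. Intervals are exact (Clopper-Pearson, 95%) and cover counting error only; p-values compare these 2 libraries, whose spread may be technical. DESeq2 1.42.0 size factors, spike-ins, total counts, other filters and the kallisto-style counts were alternatives. Ratios within a library used TPM with a pseudocount of 0.1.

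Promoters and their sequences came from RefSeq (GRCm38.p6). The members and lists were chosen with earlier results of these data known. All 10 clock genes were named; of other lists, the genes in a pair, the 2 highest, those below 1 TPM in both libraries and those past the call at 2-fold. Cell type marker lists are given by sums, counts and medians, and of their genes only Rag2, Ptcra, Cox7a1 and Ucp1 are named. One gene of the lists, and the pair it belongs to, is not reported here. The motif search counted exact letters on both strands.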

Additional observations from a re-analysis of the deposited data

How the results depend on the processing

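No clock gene was called at 2-fold under DESeq2 size factors, spike-ins, total counts, no filter on low counts, kallisto-style counts or edgeR with an assumed spread. At any ratio 7 were called, as were 3666 of all genes; the 7 became 7 with DESeq2 size factors and kallisto-style counts, 6 with spike-ins or no filter, 5 with total counts and 0 with either assumed spread. For all genes the calls at 2-fold were 539 (411 higher and 128 lower in replicate 2), and at any ratio 1735 were higher and 1931 lower; edgeR with an assumed coefficient of variation of 0.2 called 230. At a threshold of 10 TPM, 5 of the 10 genes were detected. Their median level, 9.93 TPM, was 11.1 by kallisto-style TPM, 8.47 over protein-coding transcripts, 23.5 over nuclear protein-coding genes and 8.86 without transcripts under 1000 bases (the last chosen after seeing the data), and 9.35 to 10.5 with 1 replicate left out. The E-box extended to 8 letters was in 1 gene in place of 2.

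The log2 ratio of Nr1d2 between the libraries, 0.01, was -0.016 by kallisto-style counts; the other 9 kept their sign under that setting. Csnk1d over Csnk1e was -0.20 by kallisto-style TPM. Per2 over Per3, at a mean of -0.11, was 0.33 over protein-coding transcripts. Dbp over Hlf and over Nfil3 were -0.045 and -0.22 over protein-coding transcripts, -0.048 and -0.14 without transcripts under 1000 bases, and -1.72 and -0.33 with counts not divided by length. The last setting also gave -0.49 for Cry1 over Per2. The cause was not tested, except that undivided counts grow with transcript length. No paired analysis was possible because both libraries belong to 1 group. Depth limits Arntl most, with 323 and 369 counts.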
